A study of Mus musculus with 38 samples.

Results

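The axon guidance ligands and receptors described here are the genes whose symbols belong to the semaphorin, plexin, neuropilin, ephrin, Eph receptor, Slit, Robo, netrin, Unc5 or Dcc families, chosen by symbol alone and not by any measured value. The rule matched 71 of the 25965 genes in the RNA table and 71 of the 25888 genes with a promoter window in the chromatin table. They were 20 semaphorins, 9 plexins, 2 neuropilins, 8 ephrins, 9 EphA receptors, 5 EphB receptors, 3 Slits, 4 Robos, 4 netrins and 5 netrin receptors (Dcc and Unc5a to Unc5d). The symbols Unc50 and Unc5cl also matched, and they are kept out of the families because they are not known as guidance receptors. They are included in the 71 genes and, where tested, in all counts of guidance genes below.

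Neural stem and progenitor cells (NSPCs) were derived from the subventricular zone (SVZ) of mice (male in C57BL/6JBabr) and grown as floating neurospheres with EGF and FGF2. Young adult mice were 3 months old and aged mice were 18 months old. In strain C57BL/6JBabr, RNA was sequenced from 3 derivations of each age, and the same strain was profiled for H3K4me3, H3K27me3, Input and DNA methylation. In C57BL/10 there was 1 RNA library of each age. No gene was altered and no drug was given in any group. SVZ tissue of several mice was pooled for each derivation, the cells had been expanded in culture before harvest, and the C57BL/10 mice lived in another facility, so strain and housing cannot be told apart. Since RNA came from whole neurospheres, a smaller number of cells of a type and less RNA per cell cannot be told apart either.

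The 8 RNA libraries held between 16952482 and 41053983 reads, of which 65.5% to 69.3% lay on genes. The NSPC markers were high, with a summed level of 6648 to 8391 RPM (reads scaled to a common library total) in the 6 C57BL/6JBabr libraries. Of the 6 endothelial markers, Cdh5 and Tie1 had at most 1 read in any library. The microglial genes Ptprc, Aif1, Cx3cr1 and Tmem119 also had at most 1 read. In the C57BL/6JBabr libraries the 6 endothelial markers summed to 1.88 to 2.97 RPM in young adult and to 2.56 to 3.05 RPM in aged cells. The 2 of them that averaged a log2 RPM of -2 or more were both higher in aged C57BL/6JBabr cells (median log2 difference 0.17). Of these, 0 were called at an adjusted p under 0.05 in limma. There the 6 microglial markers summed to 5.15 to 7.59 RPM, most of it from Csf1r, and the 5 pericyte markers to at most 1.15 RPM. Of 7 astrocyte markers, 1 was higher and 6 were lower in aged C57BL/6JBabr cells, with summed levels of 1599 to 1857 RPM in young adult and 1411 to 1458 RPM in aged libraries. In C57BL/10 the sums were 1895 and 1340 RPM. Of 6 ependymal markers 4 were tested, and all 4 were lower in aged C57BL/6JBabr cells (median log2 difference -0.16). Of these, 0 were called at an adjusted p under 0.05 in limma. The ependymal sums varied between libraries, from 32.3 to 104 RPM in young adult and from 35.3 to 96.0 RPM in aged C57BL/6JBabr cells. In C57BL/10 they were 91.0 RPM in young adult and 73.5 RPM in aged cells. What part these astrocyte and ependymal genes had in the results below was not tested.

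Guidance cues steer growing axons and migrating cells by attracting or repelling them. Semaphorins signal through plexins, with neuropilins as co-receptors for most of the secreted class 3 members. Ephrins are bound to the membrane and signal through Eph receptor kinases on neighbouring cells, Slits signal through Robos, and netrins attract through Dcc and repel through Unc5 receptors. In the SVZ these families are known for guiding neuroblasts towards the olfactory bulb and for acting on the proliferation of stem and progenitor cells. H3K4me3 marks active or poised promoters and H3K27me3 is the mark of Polycomb repression. Promoters that carry both are known as bivalent where the marks lie on the same nucleosomes, which bulk profiles such as these do not show.

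The promoters of these genes differed widely in CpG content, and 5 of them are shown to set promoters with both histone marks beside promoters without H3K4me3. RefSeq held a promoter of 61 of the 71 genes, and in 50 the start site lay within 500 bp of the centre of the window used for the histone marks. Each sequence is the 250 bases before the start site on GRCm38.p6, written 5′ to 3′ on the strand of the gene, with CG dinucleotides in capitals. Epha8 (chr4:136956817-136957066, minus strand) and Plxnd1 (chr6:115995006-115995255, minus strand) carried both marks. Ephb4 (chr5:137349859-137350108, plus strand) carried both marks and had the largest H3K27me3 difference between ages among windows above the level used below. Sema3g (chr14:31217623-31217872, plus strand) and Robo4 (chr9:37401722-37401971, plus strand) lacked H3K4me3 and had low H3K27me3.
Epha8: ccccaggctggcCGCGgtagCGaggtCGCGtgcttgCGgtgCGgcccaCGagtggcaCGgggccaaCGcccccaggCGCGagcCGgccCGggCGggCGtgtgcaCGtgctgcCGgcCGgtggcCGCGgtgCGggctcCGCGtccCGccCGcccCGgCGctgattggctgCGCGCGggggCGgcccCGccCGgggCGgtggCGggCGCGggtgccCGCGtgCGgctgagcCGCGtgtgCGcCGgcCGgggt
Plxnd1: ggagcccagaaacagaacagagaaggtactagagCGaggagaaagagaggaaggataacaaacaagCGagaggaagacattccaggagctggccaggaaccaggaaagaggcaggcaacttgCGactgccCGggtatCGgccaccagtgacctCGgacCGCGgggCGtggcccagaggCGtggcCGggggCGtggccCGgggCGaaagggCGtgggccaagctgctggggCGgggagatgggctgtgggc
Ephb4: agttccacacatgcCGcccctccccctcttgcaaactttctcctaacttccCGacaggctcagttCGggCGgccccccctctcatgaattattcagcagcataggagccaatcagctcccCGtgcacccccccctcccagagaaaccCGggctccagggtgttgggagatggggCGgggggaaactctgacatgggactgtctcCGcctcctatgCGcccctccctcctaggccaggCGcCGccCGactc
Sema3g: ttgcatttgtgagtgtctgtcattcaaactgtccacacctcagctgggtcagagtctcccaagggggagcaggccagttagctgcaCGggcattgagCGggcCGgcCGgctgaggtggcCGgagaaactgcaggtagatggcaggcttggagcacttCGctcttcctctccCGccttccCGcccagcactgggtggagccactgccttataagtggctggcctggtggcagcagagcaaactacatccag
Robo4: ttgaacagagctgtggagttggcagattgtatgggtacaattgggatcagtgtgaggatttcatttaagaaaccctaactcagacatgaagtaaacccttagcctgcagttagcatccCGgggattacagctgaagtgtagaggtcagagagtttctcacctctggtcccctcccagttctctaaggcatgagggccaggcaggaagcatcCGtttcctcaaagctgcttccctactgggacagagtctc

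The number of CG dinucleotides in these windows was 46 in Epha8, 16 in Plxnd1, 12 in Ephb4, 8 in Sema3g and 2 in Robo4. Over the 50 promoters the median was 17, and 78.0% held at least 10. Among 27025 RefSeq promoters of the same length, 1 per gene symbol, the median was 6, and 38.2% held at least 10. The 50 lay near the window with the most H3K4me3 and the 27025 were not chosen by a window. The 2 sets were therefore not selected alike. CG is read the same on both strands, and its count describes the sequence without placing any factor on it.

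Levels between genes were compared as RPKM, the RPM divided by the exon length in kilobases, averaged over the 6 C57BL/6JBabr libraries. Of the 70 genes with an exon length, 11 were above 10 RPKM, 26 lay between 1 and 10, 18 between 0.1 and 1, and 15 were below 0.1. The netrin system held some of the highest levels, with 46.5 RPKM for the secreted cue Ntn1, 15.9 RPKM for Ntn4 and 32.0 RPKM for the repulsive netrin receptor Unc5b. The attractive receptor Dcc had 0.380 RPKM and Unc5a 0.935 RPKM. Among the semaphorin receptors, Plxnb2 had 47.4 RPKM, the highest mean of the 70 genes, Plxna1 had 20.6 RPKM and Plxnd1 18.4 RPKM. The neuropilins, co-receptors for most class 3 semaphorins, were lower, at 2.76 RPKM for Nrp1 and 0.181 RPKM for Nrp2. The highest semaphorins were the transmembrane Sema6d at 12.5 RPKM and Sema5b at 7.64 RPKM.

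Among Eph receptors, Ephb2 had 17.5 RPKM and Epha2 16.8 RPKM, followed in their families by Ephb4 at 3.59 RPKM and Epha5 at 1.73 RPKM. The highest ephrins were Efnb1 at 7.42 RPKM and Efna4 at 4.40 RPKM. The Slit and Robo families were low throughout, with 2.15 RPKM for Robo2, 0.691 RPKM for Robo1, 0.580 RPKM for Slit1 and 0.0449 RPKM for Slit2. Unc50 had 22.2 RPKM, and Unc5cl had at most 1 read in any library. Also with at most 1 read were Epha6 and Epha8.

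Plxnb2 and Ntn1 were close in level and their ranges over the 8 libraries overlapped, 41.0 to 56.7 RPKM for Plxnb2 and 44.4 to 66.3 RPKM for Ntn1. Unc5b ranged from 26.7 to 58.1 RPKM and overlapped both. The ranges of Plxna1 (19.4 to 24.8 RPKM), Plxnd1 (13.9 to 22.6 RPKM), Ephb2 (14.2 to 19.9 RPKM) and Epha2 (14.3 to 21.9 RPKM) overlapped one another and lay below those of the 3 highest genes, so the order within this set is not resolved by these libraries.

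**Figure D1:**
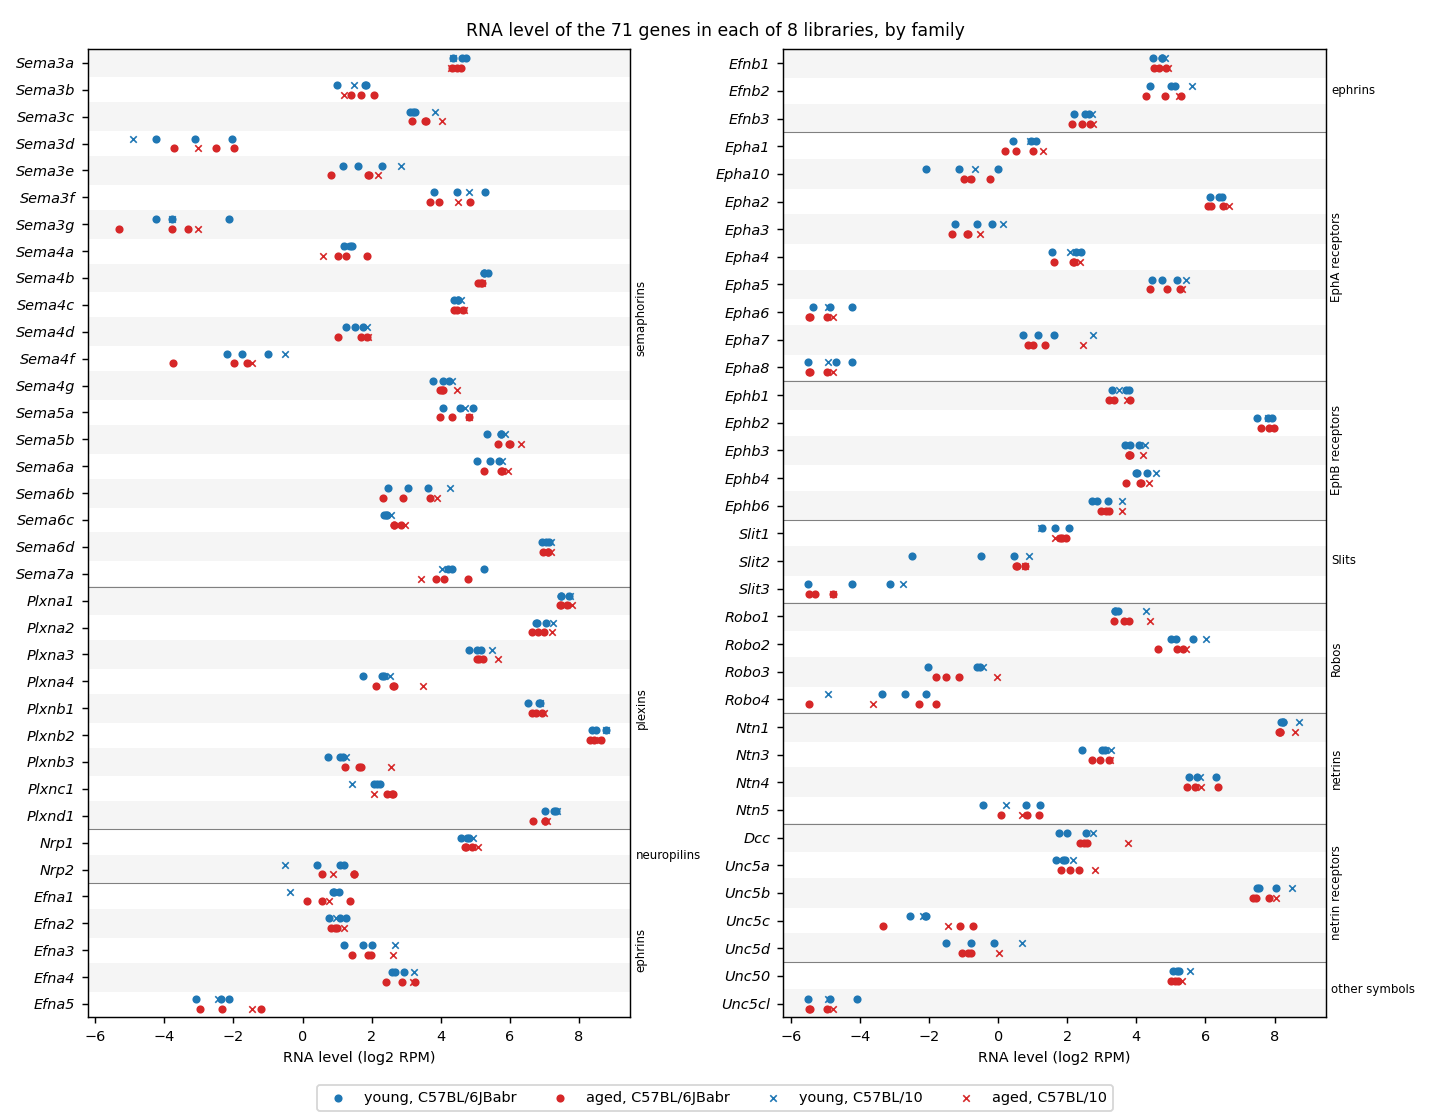
RNA level of each of the 71 genes (rows, grouped by family) on the log2 RPM axis, with 1 point per library: blue for young adult, red for aged, circles for C57BL/6JBabr and crosses for C57BL/10. In most genes the blue and red circles overlap, and genes without a read in a library sit at the floor of that library, near -5.

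To ask whether guidance genes changed with age, the 62 genes that averaged a log2 RPM of -2 or more were tested within a fit over 14858 genes (limma, 3 young adult against 3 aged libraries of C57BL/6JBabr). None of the 62 was called at an adjusted p under 0.05, and the fit called 0 of all genes tested (0%). The study that used these libraries did report differentially expressed genes, by a limma moderated test at a false discovery rate under 0.05. Why its outcome differs from this fit was not tested. An unadjusted p under 0.05 was reached by 258 genes, 1.74% of those tested, of which 3 belonged to these families (Plxnb3, Plxnc1 and Plxnd1). A fit blocked on replicate number gave 30 genes as higher in aged cells (0.202%) and 44 as lower (0.296%), with 0 of the 62 in either set. In that fit 13 of the 62 genes and 1229 of all 14858 had an unadjusted p under 0.05. Of the 62 genes, 31 were higher and 31 lower in aged cells, and the median difference was 0.00049 on the log2 scale, against 0.0015 over all genes tested. This balance moved with single libraries, from 25 of 62 higher without young adult replicate 1 (median -0.064) to 41 of 62 without young adult replicate 3 (median 0.054). The median size of the difference, without its sign, was 0.130 in the 62 genes and 0.0793 over all genes. The 2 sets were not matched for RNA level, and some of the 62 rest on few reads (Unc5c on 4 to 24 and Robo3 on 8 to 24 per library). The 9 genes below the filter were Epha6, Epha8, Efna5, Sema3d, Sema3g, Sema4f, Slit3, Robo4 and Unc5cl, with at most 19 reads in any library.

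The groups did not overlap in 7 of the 62 genes, where 5.2% of all genes tested had groups that did not overlap in either direction. The aged libraries were all higher in 4 genes (3.14% of all genes) and all lower in 3 (2.05% of all genes). Plexins were the most frequent among them, with Plxnb3 and Plxnc1 higher and Plxnd1 lower. The others were Sema6c and Slit2, higher in aged cells, and Sema4b and Ntn1, lower in aged cells.

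Plxnc1 is the receptor of Sema7a. Its log2 RPM was 2.24, 2.16 and 2.08 in young adult and 2.45, 2.62 and 2.57 in aged libraries of replicates 1 to 3, and 1.43 and 2.08 in young adult and aged C57BL/10. The difference was 0.39 ± 0.14 (SE, n = 3 per age), with an adjusted p of 1.00 in limma. All aged C57BL/6JBabr libraries lay above all young adult ones, and the aged C57BL/10 library lay above the young adult one.

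Plxnb3, a receptor for Sema5a, stood at 0.73, 1.16 and 1.08 in young adult and 1.23, 1.68 and 1.63 in aged libraries (log2 RPM). In C57BL/10 it had 1.26 in young adult and 2.56 in aged cells. The C57BL/6JBabr difference was 0.53 ± 0.22 (SE, n = 3 per age). The lowest aged value was only just above the highest young adult value.

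Plxnd1, the receptor of Sema3e known for vascular patterning, had 7.01, 7.27 and 7.35 in young adult and 6.67, 7.01 and 7.01 in aged libraries (log2 RPM). Its C57BL/10 values were 7.36 in young adult and 7.09 in aged cells. The difference was -0.32 ± 0.13 (SE, n = 3 per age, adjusted p 1.00 in limma). It was lower in the aged library of every replicate number, and without aged replicate 1 the difference was -0.20. With the replicate number as a block the adjusted p was 0.0536 in limma and 0.0568 in edgeR. DESeq2 with the block gave 0.0233, and Plxnd1 was the only member it called (56 genes, 0.377% of those tested, were called lower in aged cells).

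Sema7a, a GPI-anchored semaphorin that binds Plxnc1 and integrins, varied strongly between replicate numbers. Its log2 RPM was 4.22, 4.34 and 5.25 in young adult and 3.87, 4.08 and 4.80 in aged libraries, and 4.03 and 3.42 in young adult and aged C57BL/10. The groups overlapped, while the aged library was lower in 3 of 3 replicate numbers and in C57BL/10. The difference of -0.35 ± 0.31 (SE, n = 3 per age) had an adjusted p of 0.0965 with the block in limma. It ranged from -0.63 without aged replicate 3 to -0.030 without young adult replicate 3, and was -0.55 without young adult replicate 1 and -0.16 without aged replicate 1.

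Sema3f, a secreted semaphorin that binds Nrp2, showed the same spread, with young adult libraries at 3.81, 4.46 and 5.29 and aged ones at 3.70, 3.95 and 4.84 (log2 RPM). In C57BL/10 it was 4.82 in young adult and 4.51 in aged cells. Its difference was -0.36 ± 0.40 (SE, n = 3 per age), and without the third young adult library, which leaves its aged partner unpaired, it was 0.029. It was -0.71 without young adult replicate 1, -0.12 without aged replicate 1 and -0.69 without aged replicate 3. The aged library was lower in 3 of 3 replicate numbers, and with the block the SE was 0.09 and the adjusted p in limma 0.168.

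Sema5b, a transmembrane semaphorin, was higher in the aged library of every replicate number. Its log2 RPM was 5.73, 5.75 and 5.34 in young adult and 5.96, 6.00 and 5.66 in aged libraries, with 5.85 and 6.31 in C57BL/10. The difference was 0.27 ± 0.14 (SE, n = 3 per age), with an adjusted p of 0.133 with the block in limma, and it was 0.14 without young adult replicate 3. Sema7a, Sema3f, Sema5b and Plxnd1 are described at this length because tables of the study that used these libraries list them, so their direction here is not independent evidence.

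Sema6c, which signals through class A plexins, had young adult values of 2.35, 2.46 and 2.40 and aged values of 2.85, 2.64 and 2.66 (log2 RPM), and 2.57 and 2.95 in C57BL/10. The difference was 0.31 ± 0.14 (SE, n = 3 per age). Slit2, the secreted Robo ligand, had young adult values of -0.50, -2.50 and 0.46 and aged values of 0.54, 0.76 and 0.53 (log2 RPM), on 3 to 58 reads per library. Its difference of 1.46 ± 0.66 (SE, n = 3 per age) was the largest of the 62, and young adult replicates 1 and 2 were the lowest libraries. It was 0.63 without young adult replicate 2, 2.11 without young adult replicate 3, 0.81 on the log2(RPM + 0.5) scale and 0.96 in edgeR. The C57BL/10 libraries did not share it, with 0.88 in young adult and 0.77 in aged cells.

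Dcc was higher in aged cells in both strains, at 2.54, 2.00 and 1.75 against 2.59, 2.38 and 2.50 in C57BL/6JBabr and at 2.74 against 3.77 in C57BL/10 (log2 RPM). Its difference of 0.39 ± 0.21 (SE, n = 3 per age) came with overlapping groups, and was 0.61 without young adult replicate 1 and 0.22 without young adult replicate 3. The lower genes of the smallest p-values also included Ntn1 (-0.08 ± 0.08), Sema4b (-0.14 ± 0.08), Robo2 (-0.22 ± 0.22) and Epha3 (-0.36 ± 0.37; log2 difference ± SE, n = 3 per age). The adjusted p of each was 1.00 in limma. Single libraries moved some of them, Robo2 to -0.0098 without aged replicate 1, -0.027 without young adult replicate 3, -0.35 without young adult replicate 1 and -0.37 without aged replicate 3. Epha3 moved to -0.11 without young adult replicate 2, -0.65 without young adult replicate 3 and -0.22 without aged replicate 1.

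By family, 5 of 9 plexins, 9 of 17 semaphorins, 2 of 2 neuropilins, 3 of 7 ephrins, 2 of 7 EphA receptors, 2 of 5 EphB receptors, 1 of 3 Robos, 2 of 2 Slits, 2 of 4 netrins and 3 of 5 netrin receptors tested were higher in aged cells. No family held a called gene. In all 3 replicate numbers the aged library lay on the same side of the young adult library in 23 of the 62 genes, against 29.3% of all genes tested. The C57BL/10 difference had the sign of the C57BL/6JBabr difference in 40 of 62 genes, against 65.2% of all genes tested. The plexins shared the sign in 8 of 9 genes, the EphA receptors in 2 of 7 and the ephrins in 2 of 7. An interaction of age and strain was called in 0 of 63 genes (0.00674% of 14828 genes were called), and with the replicate block also in 0 (0.243% of all genes). An unadjusted p under 0.05 for the interaction was reached by 0 of the 63 genes without the block (240 of all 14828 genes) and by 8 with it (942 of all).

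**Figure D2:**
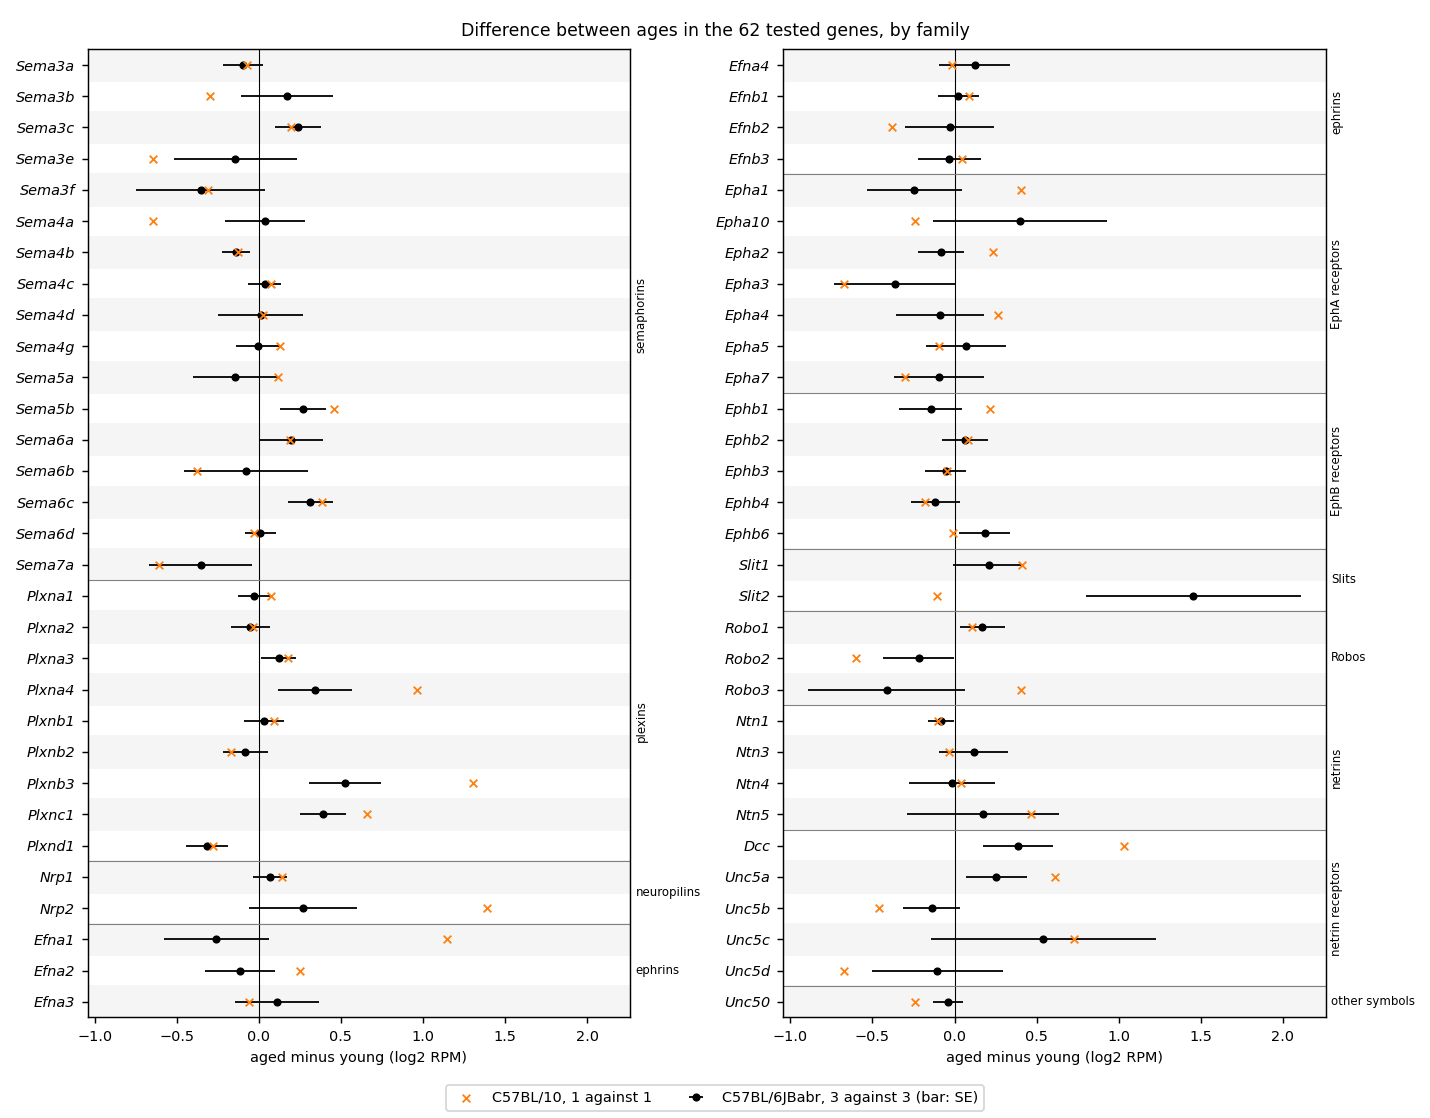
Difference between aged and young adult cells on the log2 RPM scale for the 62 tested genes, grouped by family; black points give C57BL/6JBabr with the standard error of the limma fit and orange crosses give the single C57BL/10 pair. Plxnb3, Plxnc1, Sema6c and Dcc lie right of 0 and Plxnd1 and Sema7a left of 0 in both strains.

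Other genes of the pathways were read from lists drawn up for this purpose. Of 20 tested co-receptors and further cues, 15 were higher and 5 lower in aged cells (median 0.15 on the log2 scale) and 0 were called. The smallest p-values were those of the heparan sulphate proteoglycan Gpc1 (0.34 ± 0.10) and the adhesion molecules Cntn1 (0.29 ± 0.13) and Flrt1 (0.61 ± 0.34) among the higher genes. Among the lower genes they were those of the L1 family adhesion molecule Chl1 (-0.54 ± 0.22), the netrin-like Ntng1 (-0.44 ± 0.19) and Flrt2 (-0.24 ± 0.15; log2 difference ± SE, n = 3 per age).

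Of 53 tested intracellular effectors, 37 were higher and 16 lower (median 0.07) and 0 were called. The kinase Gsk3b (0.16 ± 0.09) and the Slit-Robo GTPase-activating protein Srgap2 (0.13 ± 0.08) were among the higher genes with the smallest p-values. Chn1 (-0.15 ± 0.09), the focal adhesion kinase Ptk2 (-0.09 ± 0.08) and Mical1 (-0.16 ± 0.19) had the smallest p-values among the lower genes. Over all 14858 genes, 7512 were higher in aged cells.

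The strains were compared over all 8 libraries with age as a covariate, in 63 genes of the families and 14828 genes in all. This fit takes the 8 libraries as independent, although the replicate numbers were taken to pair the C57BL/6JBabr libraries, from their correlation alone. With 1 C57BL/10 library of each age, pairing could not be checked there. With 1 mean over both ages per pair of libraries (3 C57BL/6JBabr pairs against 1 C57BL/10 pair), limma called 2 guidance genes, Robo1 (adjusted p 0.0237) and Epha7 (adjusted p 0.0439), both higher in C57BL/10, where 242 of all genes were called higher and 1165 lower. This fit holds 1 C57BL/10 value, so its spread comes from the C57BL/6JBabr pairs alone. The other strain calls below were not made by it, and come from fits that take the libraries as independent. In the fit over 8 libraries, limma called 18 guidance genes higher in C57BL/10 (18.2% of all genes were called higher) and 1 lower (11.5% of all genes were called lower). On this scale the median of all genes was 0.17 above 0, and that of the guidance genes 0.34. The trimmed-mean scaling of edgeR moved the median of all genes to 0.008 and that of the guidance genes to 0.17, and edgeR called 6 guidance genes higher (4.71% of all genes) and 1 lower (12.8%). DESeq2 called 8 higher (5.6%) and 3 lower (13.7%). Both C57BL/10 libraries lay above all 6 others in 24 of the 63 genes, against 31.6% of all genes, and below all others in 0, against 13% of all genes.

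All 3 tools called 7 genes, Epha7, Efna3, Dcc, Ntn1, Robo1 and Sema3c as higher and Plxnc1 as lower in C57BL/10. Epha7, a receptor for A-type ephrins, had log2 RPM of 0.73 to 1.62 in the 6 C57BL/6JBabr libraries, and of 2.75 and 2.45 in young adult and aged C57BL/10. The difference was 1.48 ± 0.25 (SE) with an adjusted p of 0.00206 in limma, and 1.29 in edgeR with an adjusted p of 0.00224. Both C57BL/10 libraries lay above every C57BL/6JBabr library.

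Robo1, a Slit receptor, had log2 RPM of 3.34 to 3.78 in C57BL/6JBabr and of 4.28 and 4.39 in C57BL/10, a difference of 0.83 ± 0.12 (SE, adjusted p 0.00103 in limma). Ntn1 had 8.12 to 8.26 in C57BL/6JBabr and 8.70 and 8.6 in C57BL/10, a difference of 0.46 ± 0.07 (SE, adjusted p 0.00128 in limma) and of 0.30 in edgeR (adjusted p 0.0194). For both genes the strains did not overlap at either age. Sema3c, a secreted semaphorin, differed by 0.62 ± 0.13 (SE, adjusted p 0.00688 in limma), and Efna3, a GPI-anchored ephrin, by 0.93 ± 0.24 (SE, adjusted p 0.0183 in limma).

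Dcc differed by 0.96 ± 0.22 (SE, adjusted p 0.0118 in limma), with its highest value in aged C57BL/10. Without that library the difference was 0.64 and the adjusted p in limma 0.204. Plxnc1 was lower in C57BL/10 by a log2 difference of -0.60 ± 0.14 (SE, adjusted p 0.0121 in limma), although its aged C57BL/10 library at 2.08 touched the lowest young adult C57BL/6JBabr library at 2.08. With quantile normalization its difference was -0.40 and its adjusted p in limma 0.0624. Plxna3 (0.49 ± 0.10), Ephb6 (0.57 ± 0.14) and Unc5b (0.65 ± 0.17; log2 difference ± SE) were called by limma. Of these 3, edgeR called none, with adjusted p of 0.0548, 0.0751 and 0.0739, and DESeq2 called Plxna3 and Unc5b. The other genes called by limma as higher were Ephb3, Ephb4, Unc5a, Unc5d, Plxna2, Plxna4, Sema4g, Sema6b and Unc50.

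All these calls rest on 2 C57BL/10 libraries. A fit that leaves out 1 of them takes its spread from the C57BL/6JBabr libraries alone. Of the 8 oligodendrocyte markers limma called 2, with Mbp and Mag lower in C57BL/10 (log2 differences of -3.27 and -3.62). The 8 summed to 301 and 286 RPM in young adult and aged C57BL/10, within the 230 to 313 RPM of the C57BL/6JBabr libraries. Of the 8 neuroblast and neuronal markers it called 1, with Snap25 higher (1.08). Of 7 astrocyte markers, Gja1 was higher (0.96) and Aldoc (-0.97) and Gfap (-0.70) were lower, and the part of such cells in the strain differences was not tested. Without the young adult C57BL/10 library limma called 3 guidance genes (1425 of all 14828 genes), and without the aged one also 3 (1851 of all). Robo1 and Ntn1 were called in both of these fits, Dcc only without the young adult library and Epha7 only without the aged one. Among the other pathway genes, limma called 9 of the 20 tested genes of the co-receptor and cue list (8 higher in C57BL/10, from Ptprs at 0.37 to Met and Ntng1 at 0.85, and Dscam lower at -1.14). Of the 53 tested effectors it called 15 (13 higher, where 18.2% of all genes were called higher, among them Gsk3b at 0.28 and Dock1 at 0.62, and 2 lower, Rgs3 at -1.96 and Rhoa at -0.40; log2 differences).

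**Figure D3:**
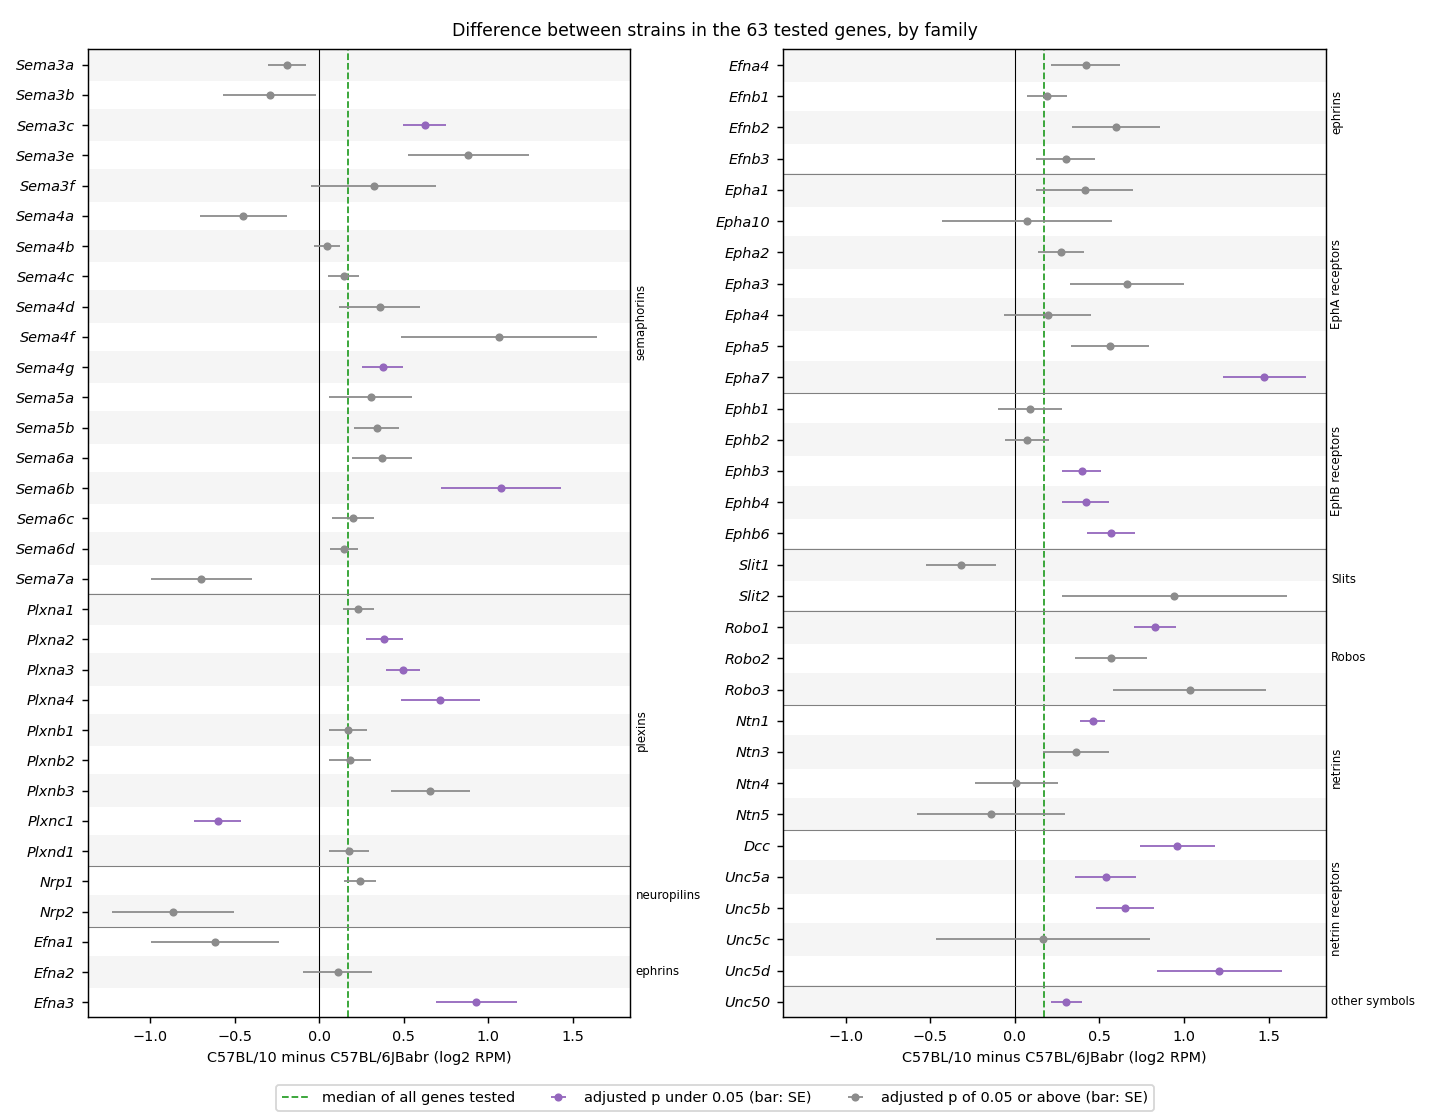
Difference between C57BL/10 and C57BL/6JBabr on the log2 RPM scale for the 63 tested genes with the standard error of the limma fit; purple points had an adjusted p under 0.05, and the dashed line is the median of all genes tested, 0.17. Epha7, Unc5d, Sema6b, Dcc and Efna3 lie farthest to the right among the purple points, and Plxnc1 is the only purple point left of 0.

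Promoter marks were read in a window of 5000 bp centred on a start site, with 1 pooled value per age, so differences between ages have no replicate error and no test. Where a gene had several windows, the one with the most H3K4me3 was used. With a mark counted as present above a log2 RPM of 1 (mean of both ages), 45 of the 71 genes (63.4%) carried both H3K4me3 and H3K27me3, against 19.7% of all 25888 genes. H3K4me3 alone was found in 20 genes (28.2%, against 41.7%), H3K27me3 alone in 2 (2.82%, against 14.8%) and neither mark in 4 (5.63%, against 23.7%). At the stricter level of 2, both marks were found in 27 genes (38.0%), against 11.1% of all genes, and H3K27me3 alone in 0. The 2 genes with H3K27me3 alone at the level of 1 had H3K27me3 of 1.37 and 1.06 beside Input of 1.35 and 1.40 at Robo4 and of 1.63 and 1.28 beside 1.16 and 1.15 at Sema3g (young adult and aged).

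All 5 netrin receptors and all 3 Slits carried both marks, as did 7 of 9 EphA receptors, 4 of 5 EphB receptors, 12 of 20 semaphorins, 5 of 8 ephrins, 4 of 9 plexins, 2 of 4 Robos, 2 of 4 netrins and 1 of 2 neuropilins. Input had a median of 1.05 in young adult and 1.14 in aged cells over the 71 windows, so the level of 1 is close to Input. At the level of 2, both marks were found in 4 of 5 netrin receptors, 3 of 3 Slits, 5 of 9 EphA receptors, 2 of 5 EphB receptors, 5 of 20 semaphorins, 2 of 8 ephrins, 3 of 9 plexins, 2 of 4 Robos, 0 of 4 netrins and 1 of 2 neuropilins. H3K27me3 was highest at Epha8, at 5.12 in young adult and 5.19 in aged cells (log2 RPM), beside H3K4me3 of 2.63 and 2.74. Slit3, a Slit with at most 4 reads in any RNA library, had H3K27me3 of 4.61 and 4.67 beside H3K4me3 of 3.08 and 3.29. Sema6a had the most H3K4me3, 7.32 and 7.58, and H3K27me3 of -0.43 and -0.31.

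RNA level followed the class of marks. The 20 genes with H3K4me3 alone had a median of 4.81 RPKM, and 18 of 20 were above 1 RPKM, against 86.2% of all genes of that class. The genes with both marks had a median of 0.811 RPKM and 43.2% were above 1 RPKM, against 31.8% of all genes of that class. At the level of 2, genes with both marks had a median of 0.356 RPKM and 25.9% were above 1 RPKM, against 19.7% of all such genes. Genes with H3K4me3 alone at that level had a median of 2.76 RPKM and 81.1% were above 1 RPKM, against 83.3%. Of the genes above 10 RPKM, Unc5b, Plxna1, Plxnd1, Epha2 and Ntn4 carried both marks at the level of 1, and Plxnd1 alone did at the level of 2. At Plxna1 H3K27me3 (1.25 and 1.16) was no higher than Input (1.33 and 1.22). Across 70 genes, log2 RPKM correlated with H3K27me3 at r = -0.56 (Spearman -0.55) and with H3K4me3 at r = 0.46 (Spearman 0.50). Over 19521 genes of the tables the values were -0.48 (Spearman -0.49) and 0.60 (Spearman 0.60). These correlations run across genes that share libraries and are a description.

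**Figure D4:**
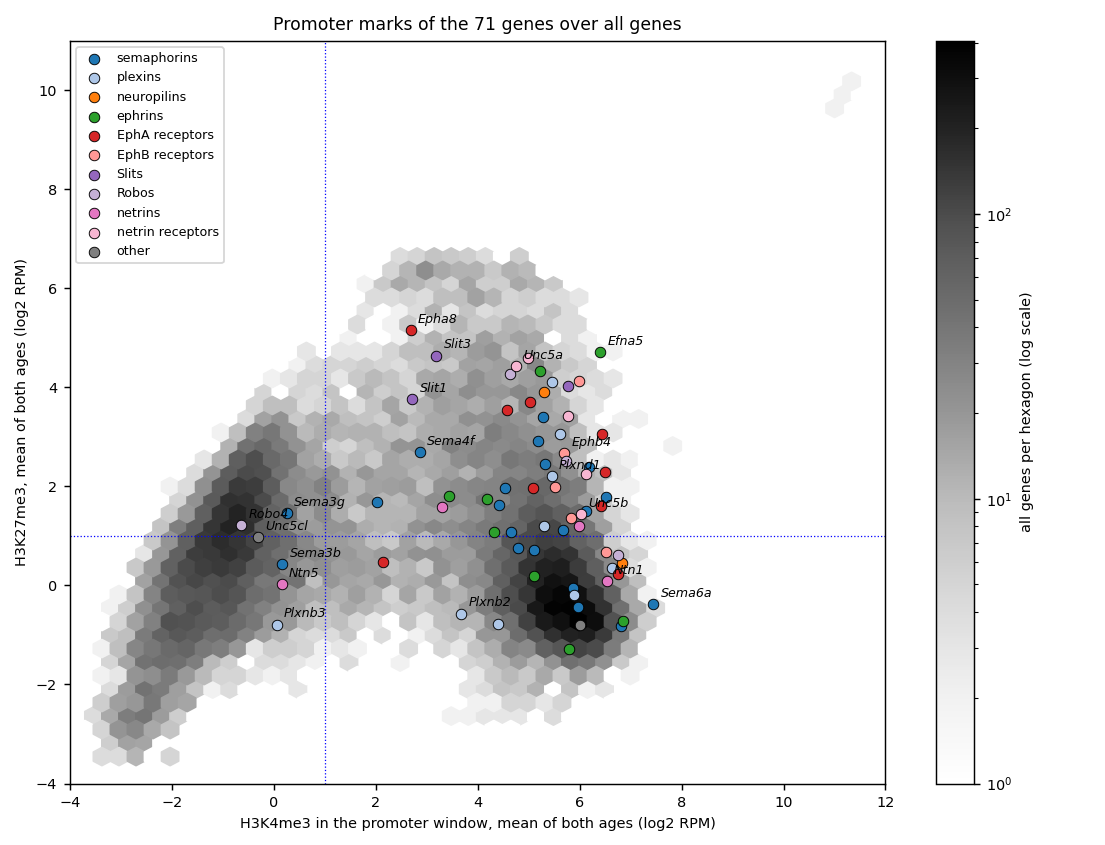
H3K4me3 against H3K27me3 in the promoter window (log2 RPM, mean of both ages) for the 71 genes, coloured by family, over the density of all genes in grey; dotted lines mark the level of 1. Most guidance genes lie at the upper right of the plot, where 63.4% of them and 19.7% of all genes carry both marks, and Robo4 and Sema3g lie among genes without H3K4me3.

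Between ages, H3K4me3 changed by 1.5-fold or more in 0 of the 71 windows (0.0541% of all genes were higher and 0.158% lower). The median difference in windows above the level was 0.20 for the guidance genes and 0.21 for all genes, so differences of about this size are shared by the table. In windows above the level, the largest rises were Epha1 (0.40), Ntn3 (0.39) and Efnb3 (0.34), and the lowest differences were Efna1 (-0.22), Slit1 (-0.09) and Robo3 (-0.01; log2 RPM, aged minus young adult). With Input subtracted the difference at Efna1 was -0.0093. Input fell at Slit1 (-0.05) and Robo3 (-0.08), at Robo3 by more than H3K4me3 did.

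H3K27me3 changed by 1.5-fold or more in 1 gene, Ephb4, which was higher in aged cells (0.718% of all genes were higher and 0.78% lower). Ephb4 is the receptor of Efnb2 and is known for its part in separating arteries from veins. In its window (chr5:137347930-137352930) H3K27me3 was 2.34 in young adult and 3.01 in aged cells, H3K4me3 was 5.61 and 5.80, and Input was 1.21 and 1.05. The rise of 0.67 was met by a fall of 0.17 in Input, and all 5 windows of Ephb4 passed the rule, with rises of 0.65 to 0.68. These windows overlap and share most of their reads.

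Ephb4 RNA was 4.00, 4.02 and 4.29 in young adult and 4.14, 3.71 and 4.12 in aged libraries, and 4.56 and 4.38 in C57BL/10 (log2 RPM). Its difference was -0.12 ± 0.15 (SE, n = 3 per age), and the groups overlapped. The 5mC of the window was 9.55%, 12.3% and 8.89% in young adult and 9.15%, 14.2% and 19.8% in aged libraries, on at least 86 calls each.

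The next largest rises of H3K27me3 in windows above the level were Plxnd1, from 1.95 to 2.46 (0.51), and Unc5c, from 3.25 to 3.59 (0.34). Input also rose, from 0.90 to 1.27 at Plxnd1 and from 0.96 to 1.24 at Unc5c, and with Input subtracted the rises were 0.14 and 0.064. The largest falls were Sema6c, from 1.38 to 0.86 (-0.52), Sema3g (-0.35) and Robo4 (-0.31). Input at Sema6c rose from 1.16 to 1.39, and with Input subtracted its fall passed the 1.5-fold rule. Over the 9 windows of Sema6c the H3K27me3 difference ranged from -0.73 to -0.25. At Sema4d, a transmembrane ligand of Plxnb1 listed in the tables of the study, H3K27me3 went from 2.08 to 1.84, and at Robo1 from 2.58 to 2.45.

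Of all 271 windows of the 71 genes, 9 had higher H3K27me3 in aged cells, at Ephb4, Plxna2, Plxnd1 and Robo2 (0.573% of all windows). The 5 overlapping windows of Ephb4 are among these 9. It was lower in 3 windows, at Epha10 and Sema6c (0.717% of all windows). H3K4me3 was higher in 1 window, at Plxna3 (0.048% of all windows), and lower in 1, at Slit3 (0.156%). Apart from Ephb4, each of these windows had a value near 1 for the changed mark in the age where it was higher, between 1.00 and 1.46. H3K4me3 was at most 1.46 in those windows except at Robo2, where Input rose as well, by 0.51 and 0.54.

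Among the 39 tested genes with H3K27me3 above the level, the difference of the mark and the difference of RNA between ages correlated at r = -0.38 (Spearman -0.52). Over 3867 genes chosen the same way the values were -0.10 (Spearman -0.16). For H3K4me3 they were 0.25 in 59 guidance genes (Spearman 0.25) and 0.29 over 13341 genes (Spearman 0.23). In the plot of marks against RNA, Plxnd1 and Sema7a had more H3K27me3 and less RNA in aged cells, and Sema6c had less H3K27me3 and more RNA. Unc5c, on 4 to 24 reads per library, had more of both. These differences and correlations were taken without Input subtracted. At Sema7a H3K27me3 rose by 0.26 while Input rose by 0.19.

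**Figure D5:**
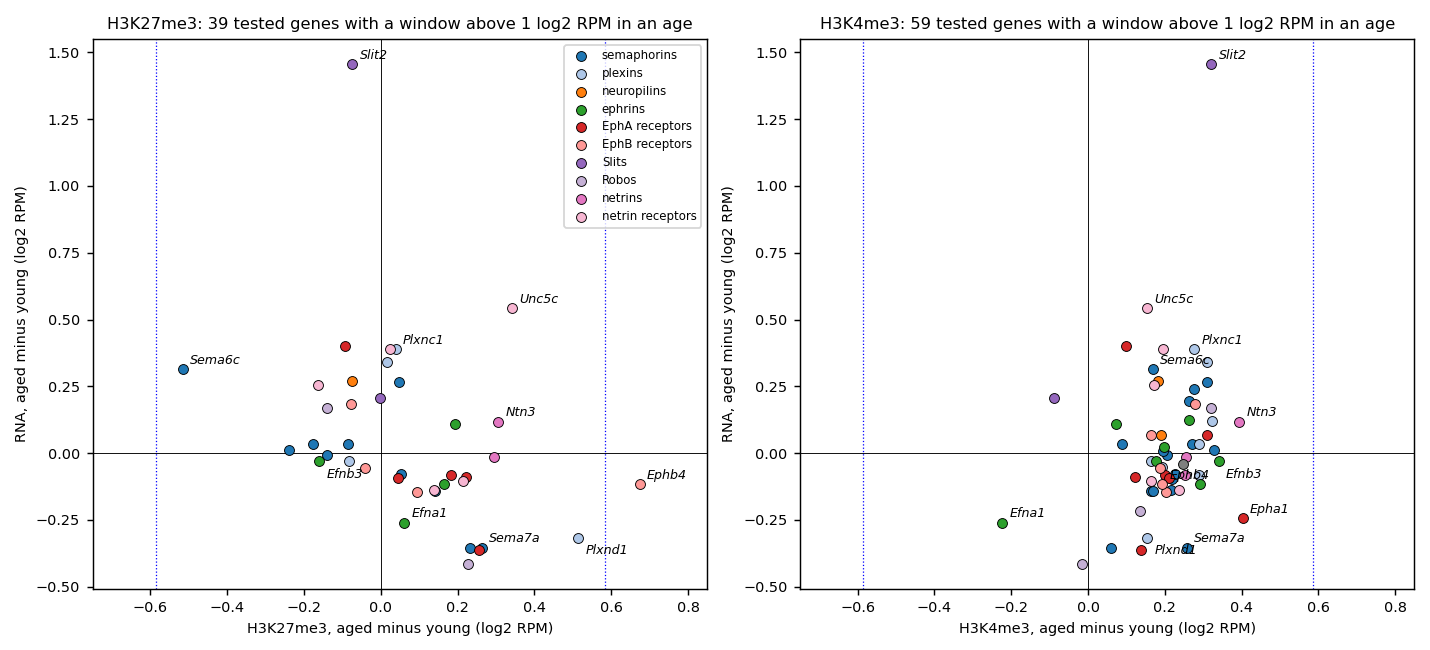
Difference between ages of the promoter mark (x axis, log2 RPM) against the difference of RNA (y axis, log2 RPM, C57BL/6JBabr) for H3K27me3 in 39 genes (left) and H3K4me3 in 59 genes (right), coloured by family; dotted lines mark 1.5-fold. Ephb4 is the only gene past a dotted line, Plxnd1 and Sema6c lie just inside on either side in the left panel, and nearly all H3K4me3 points lie between 0 and 0.40.

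DNA methylation (5mC, read by oxidative bisulphite sequencing) was summed over the same windows. Of 71 guidance genes, 0 were called between ages at an adjusted p under 0.05 and 10 percentage points, as were 0 of 23798 windows in all (0%). An unadjusted p under 0.05 was reached by 7 guidance genes and by 1297 windows (5.45%). 5mC was higher in aged cells in 44 of 71 genes, and the median difference was 1.09 percentage points against 0.41 over all windows. It was 0.40 without young adult replicate 1 (38 of 71 higher), 0.54 with at least 20 calls in every library (0.42 over all windows) and 0 in the central 1 kb.

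The 7 genes were Efna2, Efna3, Ntn1, Sema4a, Sema6c, Unc5a and Unc5b, and each had an adjusted p of 0.910 in the quasi-binomial model. Sema6c had 19.8%, 19.2% and 22.8% in young adult and 16.3%, 11.1% and 11.4% in aged libraries, on at least 92 calls each. Sema4a had 48.3%, 44.3% and 41.0% in young adult and 27.5%, 27.8% and 38.0% in aged libraries, on at least 50 calls. Ntn1 had 6.35%, 8.19% and 8.61% against 3.56%, 4.05% and 5.84%. In these 3 genes every aged library lay below every young adult library. In all, 8 of 71 guidance genes had groups that did not overlap (Efna1 and Robo4 as well as 6 of the 7), against 10.5% of all windows.

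Unc5a also had aged libraries below the young adult ones (17.6% to 28.2% against 11.7% to 15.3%). In Unc5b (15.4% to 18.2% against 19.4% to 28.7%) and Efna3 (8.92% to 11.9% against 14.2% to 19.2%) they were above. In Efna2 the groups overlapped, with young adult libraries at 10.9% to 33.3%. Bisulphite libraries, which read 5mC and 5hmC together, gave the opposite direction at Unc5a (9.99% in young adult and 16.4% in aged cells) and Unc5b (21.6% and 19.5%). They gave the same direction at Efna2 (19.3% and 23.5%), Efna3 (13.5% and 17.0%), Ntn1 (8.12% and 7.21%), Sema4a (41.5% and 39.8%) and Sema6c (17.2% and 16.9%), with smaller differences in each.

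In the central 1 kb of the windows, 5mC was mostly low where H3K4me3 was present. Its median was 1.68% in the 45 genes with both marks, the highest being Slit2 at 32.6% (242 calls). It was 1.94% in the 20 with H3K4me3 alone, the exception being Plxnb2 at 84.2%, on only 19 calls. It was 61.3% at Robo4 (62 calls) and 45.3% at Sema3g (95 calls), the 2 genes with H3K27me3 alone at the level of 1. At the 4 genes with neither mark it was 71.6% for Ntn5 (95 calls), 61.8% for Plxnb3 (only 34 calls), 59.0% for Sema3b (61 calls) and 67.9% for Unc5cl (112 calls). Over all genes the medians of the 4 classes were 4.50%, 0.699%, 74.3% and 76.1% in the same order.

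Among the promoters printed above, Epha8 had 2.06% in this core, Plxnd1 0.723% and Ephb4 0.964%. Of 34 genes with both marks and a promoter at the window centre, 91.2% held at least 10 CG dinucleotides in 250 bases, and of 11 with H3K4me3 alone 72.7% did. The 5 such genes without H3K4me3 held 2 to 8. Plxnb3 and Ntn5 had RNA of 0.376 and 0.744 RPKM with a methylated core and without either mark.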

How the data were processed

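Gene members were taken by symbol. The members and all lists were chosen with earlier results of these data known. For RNA the deposited table, made by the authors, holds log2 RPM of 25965 genes in 8 libraries. Whole reads were recovered from them (100% of the values from 1 read up were whole within 0.02 reads in the range checked, and genes without a read hold the value of 0.9 reads). The log2 RPM values of H3K4me3, H3K27me3 and Input were deposited as 1 value per age over 3 replicates and window, so no test was made on them. Counts of methylated and unmethylated calls per position were made by the authors and deposited per library, with a percent per position in the deposited files that was not used. The build was GRCm38. The submitters' processing notes name STAR 2.3.0, Bowtie2 2.2.5 and Bismark 0.12.5. No source used here names the counting program. The kit, TruSeq RNA v2, does not mark strand, so overlapping and antisense genes cannot be told apart.

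Ages, strains and their interaction were compared with limma 3.58.1 (R 4.3.3), moderated with a mean-variance trend over genes that averaged a log2 RPM of -2 or more, with Benjamini-Hochberg adjustment and a threshold of 0.05. edgeR 4.0.16 and DESeq2 1.42.0 on recovered reads were alternatives. RPKM used exon lengths of GENCODE vM21, matched by identifier (Ntn3 had none). Promoter windows counted as changed at 1.5-fold with a log2 RPM above 1 in an age. 5mC calls were summed per window (at least 10 in every library) and tested with a quasi-binomial model with dispersion moderated across windows. Depth was 13616283 to 21389132 calls per oxBS library, about 1.2 to 1.3 calls per covered position. Precision is limited by the counting error of these calls and by the spread between libraries. The number of calls is given with some of the values only. The RNA and 5mC tests were tested on simulated data.

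Same-numbered young adult and aged RNA libraries deviated together from their age means (r = 0.66, 0.18 and 0.72 across 14858 genes), so the numbers were taken to pair them. The derivations were repeated on different days, and whether both ages of a number share a day is not stated. Without the replicate block, p-values between ages measure the spread between derivations of an age. With the block they measure the spread of the age differences across replicate numbers. The strain with a single RNA library of each age shows no spread between its own derivations of an age. The strain and interaction p-values therefore assume that it varies like the other strain.

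Genes were named by a rule: those past a threshold (at most 10 per comparison), the 6 smallest p in each direction between ages, the 2 highest per family, the 3 largest rises and falls of each mark, those in tables of the study, and for the other pathway lists the 3 smallest p in each direction (1 gene named by this rule is not reported here). Genes of 5mC with an unadjusted p under 0.05, the genes of non-overlapping groups those at the ends of mark levels and strain calls beyond 10 were named after their values were seen.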

Additional observations from a re-analysis of the deposited data

How the results depend on the processing

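No guidance gene was called between ages in C57BL/6JBabr by limma without a trend, with quantile normalization, another pseudocount, other filters or all 8 libraries, by edgeR or DESeq2 without the block, or when each library was left out (0 to 0). With the replicate block limma called 0 of them (74 genes in all), edgeR 0 (94 genes) and DESeq2 1, Plxnd1 (83 genes). These last 2 fits, and edgeR, DESeq2 and the mean per pair for strains, were chosen after seeing the data. The block changed no other call among these genes. The age difference of Sema3f ranged from -0.71 (without the first young adult library) to 0.029 (without the third). The 19 strain calls (4405 genes in all) became 1 with 3-month libraries only (1431 in all), 2 with 18-month libraries only (1303), 2 with 1 mean per pair of libraries (1407), 7 in edgeR (2592), 11 in DESeq2 (2868), and 20 with quantile normalization (4475), all higher, which ended the call of Plxnc1. They became 3 without the young adult and 3 without the aged C57BL/10 library. When each library was left out in turn the calls ranged from 3 to 21, with 12 without young adult replicate 2 and 11 without aged replicate 2. The causes were not tested, and the fits that left out libraries or took means also held fewer samples. Interaction calls stayed at 0 in every fit made, the replicate block included (36 genes in all). H3K27me3 changed in 2 genes in the window of highest H3K27me3 (198 higher and 230 lower over all genes). It changed in 6 genes over all windows, where 418 windows of all genes were higher and 523 lower. With Input subtracted it changed in 2 genes (374 higher and 438 lower over all genes), and at 2-fold in 0 (11 and 28). H3K4me3 changed in 2 genes over all windows. No guidance gene was called for 5mC in any alternative (0 to 0 when each library was left out). The oxBS replicate numbers did not pair the libraries (r = 0.001, 0.001 and 0.018 across 23798 windows), and the block gave 0 calls. Precision was limited by 3 C57BL/6JBabr libraries and 1 C57BL/10 library per age and by few calls per CpG.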
